A study of Mus musculus with 16 samples.

Results

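These data describe how large peritoneal macrophages (LPM) that lack Bhlhe40 changed their gene expression when mice were given IL-4c. The arrays were chosen by their titles: 2 arrays of LPM from IL-4c-treated Bhlhe40-/- mice (IL-4c KO) and 3 arrays of LPM from untreated Bhlhe40-/- mice (naive KO), which are 5 of the 16 arrays of the series. All came from male C57BL/6 mice and from peritoneal lavage, and the cells were sorted. The treated mice were injected with IL-4c on days 0 and 2 and killed on day 4. Both groups carry the same Bhlhe40-/- genotype, so the comparison between them is one of treatment within the knockout. LPM of Bhlhe40+/+ mice (WT), with 2 arrays after IL-4c and 3 untreated, were used for the response of WT cells. The remaining 6 arrays, of alveolar macrophages and of IL-4c-treated LysM-Cre+ Bhlhe40fl/fl mice, entered the estimate of the spread between arrays, the filter on dim genes and the choice of probe set. The labels do not state the age of the mice, the allele or exons deleted, which other cells of the mice lack the gene, or whether an array was made from 1 mouse or a pool. The p-values therefore measure the spread between these arrays, which may be technical, and the small number of arrays limits the precision.

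LPM are long-lived macrophages that reside in the peritoneal cavity. Interleukin-4, given as a long-lived complex with an antibody, acts through the receptor chain Il4ra and the transcription factor STAT6. It is known to drive alternative activation, in which macrophages make secreted lectins, arginase 1 and lectin receptors, and it drives division of the resident cells. Bhlhe40 is a basic helix-loop-helix repressor that binds E-boxes and is known to matter for the division of these cells. The comparison asks what IL-4c still does in LPM without it.

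Each array gave a log2 signal per gene after RMA by the authors, and 11634 genes were tested in 1 limma fit. A gene is said below to rise or fall only where the adjusted p (Benjamini-Hochberg over these genes) was under 0.05, and signed values are log2 differences, IL-4c minus naive, with their standard error (SE). Array medians lay between 4.79 and 4.93 on the 16 arrays, and 4.84 marks the middle of them. A level below it is dim, and a fold change from or to such a level is not an exact size. The 2 IL-4c KO arrays correlated at 0.991 across probe sets and the 3 naive KO arrays at 0.99 to 0.992, where probe sets are not independent replicates.

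Markers of the sorted cell type were read on every array. The macrophage marker Adgre1, which encodes F4/80, had log2 signals of 11.74 and 11.50 in IL-4c KO and 11.55, 11.45 and 11.59 in naive KO. Icam2, an adhesion molecule used to sort LPM, had 11.14 and 10.91 in IL-4c KO and 10.79, 10.78 and 10.75 in naive KO. Gata6, the transcription factor that defines LPM, had 9.08 and 9.17 in IL-4c KO and 8.54, 8.75 and 8.72 in naive KO, a log2 difference of 0.46 that missed the threshold (adjusted p = 0.051). These 3 markers were well above the array medians in both groups. Of the 8 macrophage markers, all tested, 1 rose (Cd68) and 5 fell (Csf1r, Mertk, Lyz2, Fcgr1 and Cd14), with a median log2 difference of -0.473, and 3 fell without IL-4c KO replicate 1.

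Markers of other cells moved with the treatment too. Of 12 B cell markers 7 were tested, 6 of them fell and 0 rose, and 4 were dim, among them the defining factors Pax5 and Ebf1. The 7 tested markers averaged log2 signals of 5.23 and 5.17 in IL-4c KO and 6.47, 6.37 and 5.85 in naive KO. Ms4a1, which encodes CD20, had 3.6 and 3.54 in IL-4c KO and 5.12, 5.08 and 4.22 in naive KO. Of 12 T and NK cell markers 3 were tested and 7 were dim, among them Cd3d and Cd4. Cd2 fell by 0.62 and Cd8a by 0.53, the latter to a dim level, while Cd3e was not called (-0.18). Of 10 neutrophil markers 6 were tested, of which Csf3r fell by 1.82 and Mmp9 by 1.28, while Cxcr2 rose by 0.44 at a dim level. The others, Ly6g, Camp, Ngp and Retnlg, were dim. The rise of Cxcr2 was lost without naive KO replicate 1 or 2. Its log2 signals were 3.08 and 3.52 in IL-4c KO and 2.87, 2.74 and 2.95 in naive KO, so IL-4c KO replicate 1 lay close to the naive arrays. Of the tested markers of eosinophils, mast cells and mesothelial cells 0 were called, and 2 or 3 were tested of each. In bulk samples it is not known which cells gave the signal of a marker, the LPM themselves included. Fewer cells of a type and less RNA per cell cannot be told apart either, and the part of these cells in the results below was not tested.

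Bhlhe40 itself (Entrez 20893, chromosome 6, 108660629 to 108666925, GRCm38.p6) had log2 signals of 8.01 and 7.90 in IL-4c KO and 6.79, 6.50 and 7.11 in naive KO. Both IL-4c KO arrays lay above all naive KO arrays (log2 difference 1.16, SE 0.17, adjusted p = 1.1e-04). In WT the same probe set read 8.77 and 8.99 after IL-4c and 8.66, 8.75 and 8.64 in untreated cells, above the knockout in each case. Neither labels nor files say whether the probes read the deleted part of the gene, so the signal in knockout cells does not check the deletion. The rise in KO exceeded that in WT by 0.96 (SE 0.24), which missed the threshold (adjusted p = 0.089). Bhlhe41, the paralogous repressor, had log2 signals of 5.41 and 4.04 in IL-4c KO and 6.01, 5.43 and 5.79 in naive KO. It fell by 1.02 (SE 0.35, adjusted p = 0.031), and without naive KO replicate 3 this call was lost (adjusted p = 0.064).

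IL-4c changed a large share of the measured genes in the knockout cells. Of 11634 genes 2552 rose (21.9%) and 1790 fell (15.4%), and these shares are the background against which the lists below should be read. At least a 2-fold change was seen for 611 of the risen and 336 of the fallen genes, at least a 4-fold change for 92 and 46, and at least an 8-fold change for 29 and 10. Without IL-4c KO replicate 1 the number of called genes fell to 2787, against 4342 with all arrays. Over all tested genes the median log2 difference was 0.038. The balance of directions depends on scaling: risen genes were 58.77% of the calls on the deposited values, 52.41% after quantile normalization was applied again, 66.32% with each array centred on its median and 46.52% with each array centred on the median of the tested genes. The last 3 settings put the median of all genes at 0.008, 0.094 and -0.055, so small shifts of a list have no fixed direction.

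Naive KO replicate 3 stood apart from replicates 1 and 2 in genes of cell division and in B cell markers, so the response was also fitted without it. Then 2492 genes rose (21.4%) and 1589 fell (13.7%), of which 2296 and 1444 did so in both fits. In all 602 calls were lost and 341 gained, and 0 genes changed sign among those called with all arrays. The size of the difference moved more than 1.5 times for 25 called genes. Of the genes named as risen or fallen, Bhlhe41, Maf, Ccnd3, Cd36 and Pdk4 missed the threshold without this array. Without IL-4c KO replicate 1 this held for Maf, Ccnd3, Csf1r, Socs1, Odc1, Pdk4, Cebpa, Pttg1, Ccl5, Osm, Vegfa, Egr1, Trem2, Fcgr4, Per3 and Clock. Without IL-4c KO replicate 2 it held for Bhlhe41, Ccnd3, Clec7a, Cd163, Cd36, Pdk4, Cebpa, Pttg1, Sat1, Vsig4, Colec12, Clec4a3, Tlr7, Thbs1 and Clock. Without naive KO replicate 1 or 2 it held for Bhlhe41, Maf, Trem2, Fcgr4, Ccnd3, Cd36, Pdk4, Pttg1 and Per3. These lists leave out some cell type markers. Of these, Marco missed the threshold without IL-4c KO replicate 2 (log2 difference -0.61) or naive KO replicate 1 (-0.51).

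The 3 largest rises were in secreted products of alternative activation. Rnase2a, a secreted ribonuclease of the eosinophil-associated family, had log2 signals of 11.36 and 11.35 in IL-4c KO and 2.82, 2.80 and 3.12 in naive KO. Chil3, the chitinase-like lectin Ym1, had 12.55 and 12.44 in IL-4c KO and 6.09, 3.81 and 5.17 in naive KO. Chil4, its neighbour Ym2, had 9.04 and 9.07 in IL-4c KO and 3.20, 3.58 and 3.08 in naive KO. In each gene the IL-4c arrays agreed closely and lay far above every naive array, and the naive levels of Rnase2a and Chil4 were dim. So was the level of Chil3 on naive KO replicate 2 (3.81). The log2 differences were 8.44 for Rnase2a (SE 0.18, adjusted p = 3.1e-14), 7.47 for Chil3 (SE 0.41, adjusted p = 5.3e-09) and 5.77 for Chil4 (SE 0.25, adjusted p = 3.2e-10).

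The promoters of the 2 genes with the largest rises are printed here from 250 bases before to 50 after the start, from RefSeq on GRCm38.p6, because STAT6 is the factor through which IL-4 acts. They are Rnase2a at chr14:51256063-51256362 and Chil3 at chr3:106167515-106167814, both on the minus strand and written 5′ to 3′.
Rnase2a: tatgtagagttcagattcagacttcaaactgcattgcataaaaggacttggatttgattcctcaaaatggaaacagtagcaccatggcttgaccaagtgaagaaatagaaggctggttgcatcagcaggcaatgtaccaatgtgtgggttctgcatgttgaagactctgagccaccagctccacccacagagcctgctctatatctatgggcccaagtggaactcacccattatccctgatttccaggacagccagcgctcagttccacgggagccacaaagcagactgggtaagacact
Chil3: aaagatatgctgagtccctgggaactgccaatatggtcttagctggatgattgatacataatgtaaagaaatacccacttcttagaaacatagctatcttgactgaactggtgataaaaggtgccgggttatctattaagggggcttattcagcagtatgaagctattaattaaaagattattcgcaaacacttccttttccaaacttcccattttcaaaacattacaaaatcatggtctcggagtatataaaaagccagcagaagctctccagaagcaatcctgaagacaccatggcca
Neither window held TTC and GAA with 4 bases between them, the spacing known for STAT6, on either strand, which says only that these letters are not in these windows. Of 77 promoters of genes that rose at least 4-fold, 6.49% held it, and of the 14 of secreted products of alternative activation 21.4%, against 6.47% of the 9352 promoters of tested genes and 8.01% of all 27025 promoters in the table. It was in 12.9% of 31 replication promoters, 12.2% of 41 mitotic ones and 2.7% of 37 promoters of genes that fell at least 4-fold. TTC and GAA with 3 bases between them were likewise in 21.4% of the 14 promoters of secreted products, and in 5.19% of the 77. Over tested genes the share with 3 bases was 8.09%, and the Chil3 window held this spacing.

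Other secreted products followed in size. Cst7, a secreted protease inhibitor of the cystatin family, had log2 signals of 9.33 and 9.45 in IL-4c KO and 3.90, 4.46 and 4.44 in naive KO (log2 difference 5.13, SE 0.24, adjusted p = 9.6e-10). Timp1, an inhibitor of matrix metalloproteinases, had 9.49 and 7.44 in IL-4c KO and 3.38, 3.83 and 3.82 in naive KO (4.78, SE 0.45, adjusted p = 1.4e-06). The IL-4c arrays of Timp1 differed from each other by more than those of Cst7, though both lay above every naive array. Of the 16 tested members of the list of secreted products 6 rose and 2 fell, with a median log2 difference of 0.367 (0.206 without IL-4c KO replicate 1 and 0.672 without replicate 2). Retnla, which encodes the secreted protein RELMα and is a standard marker of alternative activation, was already high without IL-4c. Its log2 signals were 11.98 and 12.05 in IL-4c KO and 11.60, 11.58 and 11.77 in naive KO, and its difference of 0.36 missed the threshold (adjusted p = 0.20). Slpi, a secreted protease inhibitor, fell by 0.96 and Fn1, fibronectin, by 0.54.

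**Figure D1:**
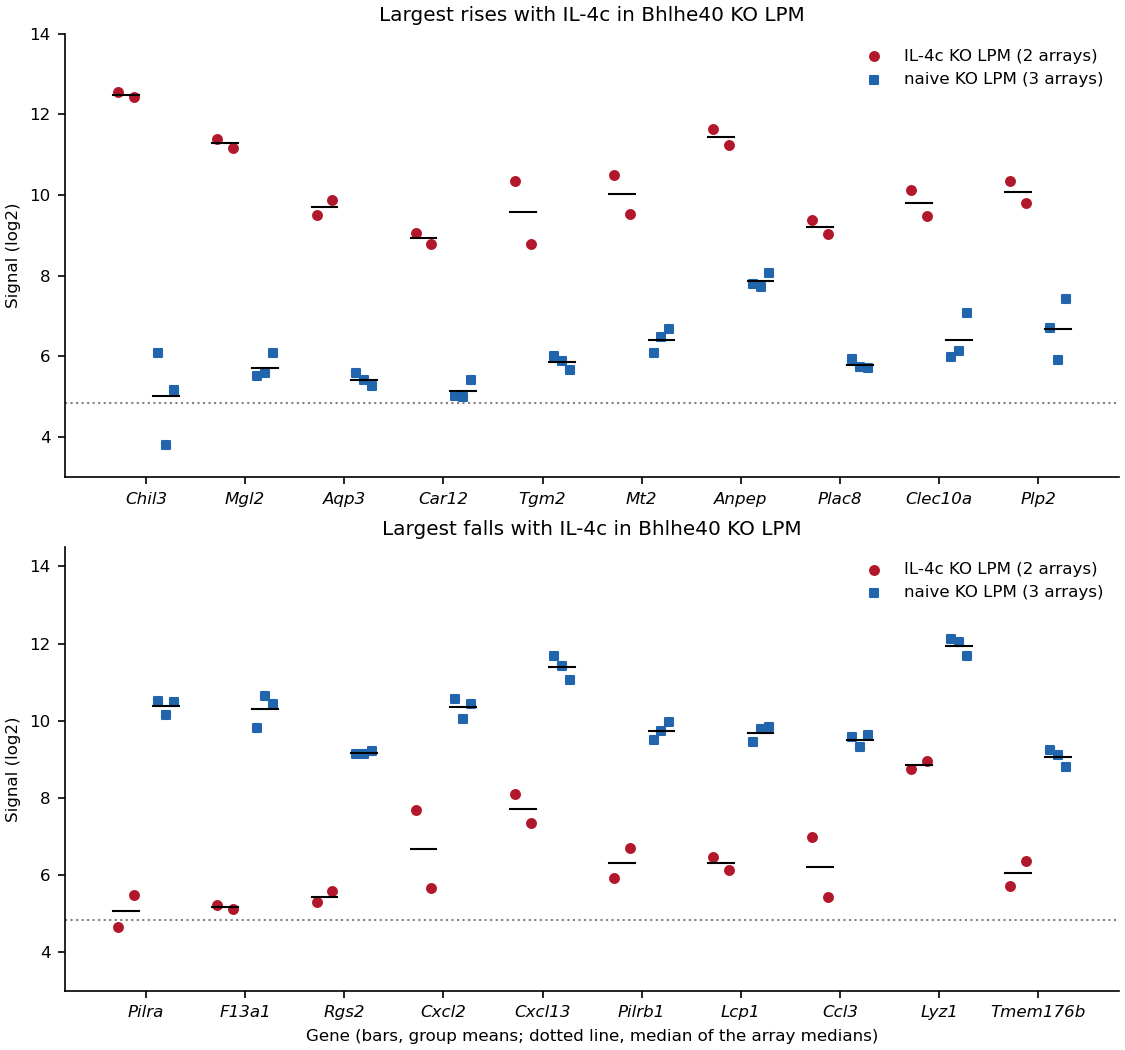
Log2 signal of the 10 largest rises (top) and 10 largest falls (bottom) among called genes that met a limit on level. Both group means had to lie above the middle of the array medians, while single arrays of Chil3 and Pilra lay below it. Red circles are the IL-4c KO arrays, blue squares the naive KO arrays, short bars the group means and the dotted line that middle (4.84); the groups do not overlap in any of these genes, and the IL-4c arrays of Tgm2 and Cxcl2 lie far apart from each other.

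Some lectin receptors at the cell surface were among the large rises. Mgl2 had log2 signals of 11.40 and 11.18 in IL-4c KO and 5.51, 5.59 and 6.07 in naive KO (log2 difference 5.56, SE 0.25, adjusted p = 4.1e-10). Clec10a, its neighbour, which like Mgl2 encodes a lectin for galactose-type sugars, had 10.12 and 9.48 in IL-4c KO and 5.98, 6.13 and 7.09 in naive KO. Naive KO replicate 3 was the highest of the naive arrays for both, and the log2 difference of Clec10a was 3.40 with it and 3.75 without it. Mrc1, the mannose receptor CD206, rose by 1.74 (SE 0.34, adjusted p = 9.1e-04), Cd209a, a lectin of the DC-SIGN family, by 2.07 and Cdh1, E-cadherin, by 1.45. Other receptors of the list fell: Clec7a, the β-glucan receptor Dectin-1, by 1.29, the scavenger receptor gene Msr1 by 1.01, the haemoglobin scavenger receptor gene Cd163 by 0.94 and Cd36 by 0.72. In all 8 of 18 tested members rose and 4 fell (median log2 difference 0.332). The checkpoint ligand gene Pdcd1lg2 (0.26) and the receptor chain Il4ra (0.26) were not called. Without IL-4c KO replicate 2 only 1 of the list fell (median 0.571), and without replicate 1 the median was 0.169.

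The components of the IL-4 signal showed small differences. Of 16 tested members of the receptor and STAT6 list 4 rose and 3 fell, with a median log2 difference of 0.149. Il13ra1, the receptor chain that IL-4 and IL-13 share on macrophages, fell by 1.10 (SE 0.21, adjusted p = 6.9e-04), and Ptpn6, the phosphatase SHP-1, by 0.82. Socs1, a feedback inhibitor, rose by 0.52 and Akt1 by 0.56. Stat6 (0.24) was not called. Only 1 member rose without IL-4c KO replicate 1 (median 0.063) and 2 without naive KO replicate 2.

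Enzymes and transporters that handle arginine were among the clearest rises. Arg1, arginase 1, had log2 signals of 12.36 and 12.24 in IL-4c KO and 9.61, 9.26 and 9.81 in naive KO (log2 difference 2.74, SE 0.17, adjusted p = 2.9e-08). Slc7a2, a cationic amino acid transporter that brings arginine into the cell, had 11.52 and 11.62 in IL-4c KO and 8.52, 8.53 and 8.27 in naive KO (3.13, SE 0.13, adjusted p = 2.3e-10). Both were high on every IL-4c array, with no overlap. Further along the pathway the spermidine synthase gene Srm rose by 0.94, the ornithine aminotransferase gene Oat by 0.93, Aldh18a1 of proline synthesis by 0.89 and the ornithine decarboxylase gene Odc1 by 0.52. Sat1, which acetylates polyamines for export, fell by 0.39. Of 12 tested members of the arginine and polyamine list 8 rose and 1 fell (median log2 difference 0.563), with 5 risen without IL-4c KO replicate 1.

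Among other enzymes tied to alternative activation 7 of 14 tested members rose and 3 fell (median log2 difference 0.501), with 4 risen without IL-4c KO replicate 1 (median 0.223). Tgm2, transglutaminase 2, had log2 signals of 10.36 and 8.78 in IL-4c KO and 6.01, 5.89 and 5.65 in naive KO (log2 difference 3.72, SE 0.38, adjusted p = 3.6e-06). Ucp1, the mitochondrial uncoupling protein, had 5.37 and 7.0 in IL-4c KO and 3.76, 4.04 and 4.24 in naive KO (2.17, SE 0.45, adjusted p = 0.0015). Tgm2 was higher on IL-4c KO replicate 1 and Ucp1 on replicate 2, and the naive level of Ucp1 was dim. Without replicate 2 the log2 difference of Ucp1 was 1.36. The fatty acid binding protein gene Fabp4 fell by 1.47, Pdk4, an inhibitor of pyruvate dehydrogenase, by 1.31 and the lipoxygenase gene Alox15 by 1.04. The call for Pdk4 was lost without naive KO replicate 3.

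The remaining large rises belong to several functions. Anpep, the aminopeptidase CD13, had log2 signals of 11.65 and 11.24 in IL-4c KO and 7.79, 7.72 and 8.07 in naive KO (log2 difference 3.58, SE 0.19, adjusted p = 3.4e-09). Aqp3, a water and glycerol channel, rose by 4.27, Gatm, the first enzyme of creatine synthesis, by 4.29 and Car12, a membrane carbonic anhydrase, by 3.78. The metallothionein gene Mt2 rose by 3.6, the kallikrein gene Klk9 by 5.16 and Plp2 by 3.40. The naive levels of Gatm and Klk9 were dim. Plac8 had log2 signals of 9.38 and 9.03 in IL-4c KO and 5.94, 5.75 and 5.72 in naive KO (3.41, SE 0.51, adjusted p = 1.1e-04). Car4, a carbonic anhydrase counted here among the markers of alveolar macrophages, rose by 3.43 from a dim naive level. Of 9 tested markers of that list 2 rose (Car4 and Chil3) and 2 fell (Marco and Fabp4), with a median log2 difference of -0.084.

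Of 20 tested transcription factors of alternative activation 10 rose and 2 fell (median log2 difference 0.543). Klf4, which acts with STAT6, had log2 signals of 9.53 and 9.19 in IL-4c KO and 7.56, 7.48 and 7.35 in naive KO (log2 difference 1.89, SE 0.18, adjusted p = 2.1e-06). Irf4, a factor needed for this activation state, had 6.45 and 6.39 in IL-4c KO and 5.13, 5.47 and 5.64 in naive KO (1.0, SE 0.14, adjusted p = 6.6e-05). Ppargc1b, a coactivator for mitochondrial genes, rose by 1.33, the repressor gene Nfil3 by 1.16 and the NF-κB cofactor Bcl3 by 1.07. Pparg (0.39, adjusted p = 0.071) was not called with all arrays and was called without naive KO replicate 3 (0.55, adjusted p = 0.012). Id2, an inhibitor of helix-loop-helix factors, had log2 signals of 6.82 and 7.54 in IL-4c KO and 8.71, 8.31 and 8.78 in naive KO. It fell by 1.42 (SE 0.24, adjusted p = 3.2e-04), and Cebpa fell by 0.55.

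Regulators of resident macrophage identity went both ways, with 7 of 16 tested members higher and 4 lower (median log2 difference 0.475), and 4 higher without IL-4c KO replicate 1 (median 0.292). Maf, which restrains the division of macrophages, had log2 signals of 7.58 and 7.14 in IL-4c KO and 6.83, 6.91 and 6.86 in naive KO. Its rise of 0.49 (adjusted p = 0.036) missed the threshold without naive KO replicate 3 (adjusted p = 0.066). Irf8, a factor of the mononuclear phagocyte lineage, fell by 1.23, Zeb2 by 0.69 and the CSF-1 receptor gene Csf1r by 0.47. Myc (-0.10) and Klf2 (0.20) were not called. Among genes associated with Maf, 3 of 17 rose and 3 fell (median log2 difference 0.219), and 1 rose without IL-4c KO replicate 1 (median 0.031) or naive KO replicate 1. The largest of these changes was in F13a1, the A subunit of coagulation factor XIII, with log2 signals of 5.24 and 5.13 in IL-4c KO and 9.81, 10.64 and 10.44 in naive KO (log2 difference -5.12, SE 0.44, adjusted p = 7.1e-07).

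Of 21 tested markers of LPM 8 fell and 2 rose (median log2 difference -0.157), and 0 rose without IL-4c KO replicate 1. Itga6, integrin α6, had log2 signals of 7.78 and 8.03 in IL-4c KO and 10.87, 10.58 and 10.67 in naive KO (log2 difference -2.80, SE 0.17, adjusted p = 1.3e-08). Coagulation factor V, encoded by F5, had 7.56 and 8.37 in IL-4c KO and 10.07, 10.11 and 9.96 in naive KO (-2.08, SE 0.18, adjusted p = 7.9e-07). Cxcl13, the chemokine that attracts B cells, had 8.09 and 7.34 in IL-4c KO and 11.69, 11.43 and 11.06 in naive KO (-3.67, SE 0.33, adjusted p = 8.7e-07). For all 3 the fallen levels stayed above the array medians. Tgfb2, a growth factor typical of LPM, fell by 1.23. The 2 markers that rose were Rarb (0.57) and F10 (0.56), with differences of 0.46 and 0.44 without IL-4c KO replicate 1. Lyz2, lysozyme M, had log2 signals of 10.84 and 10.95 in IL-4c KO and 12.63, 12.49 and 12.63 in naive KO (-1.69, SE 0.17, adjusted p = 3.1e-06). Its paralog Lyz1 fell by 3.07, and probes of such close copies may read both genes.

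**Figure D2:**
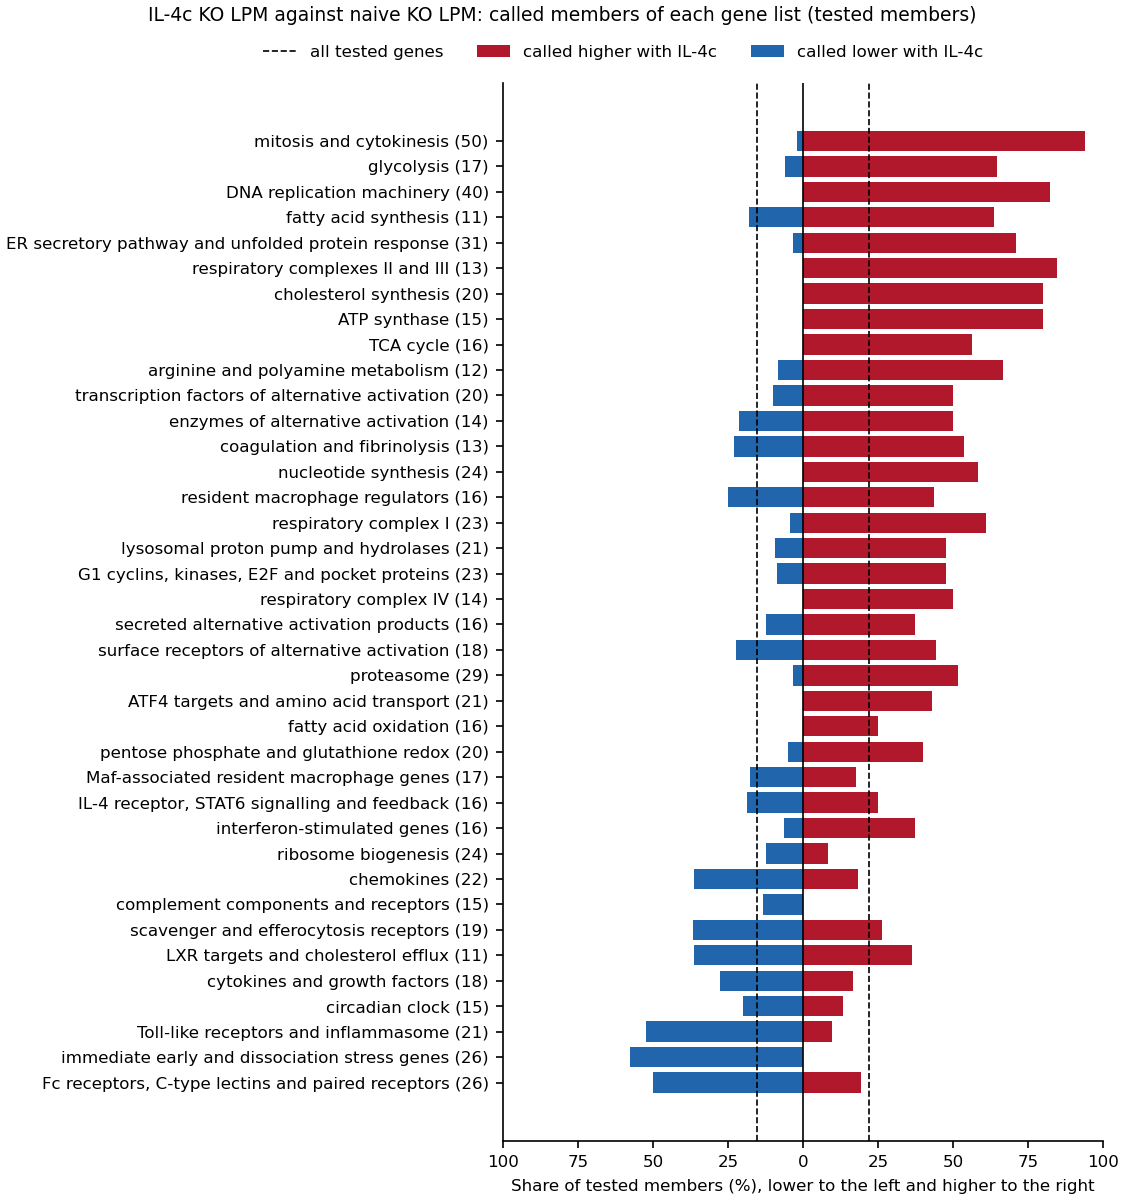
Share of the tested members of each gene list that rose (right) or fell (left) in IL-4c KO against naive KO, for lists with at least 10 tested members, ordered by their median log2 difference. Dashed lines mark the shares over all tested genes (21.9% rose, 15.4% fell); the mitosis list reaches furthest to the right, with 47 of 50, and the immediate early list furthest to the left, with 15 of 26.

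Genes of cell division rose together. Of 50 tested genes of mitosis and cytokinesis 47 rose and 1 fell, with a median log2 difference of 1.452. The one that fell was Pttg1, securin, by 0.34. Of 40 genes of DNA replication 33 rose and 0 fell (median 0.815), of 24 genes of nucleotide synthesis 14 rose and 0 fell (median 0.478), and of 23 genes of the G1 phase 11 rose and 2 fell (median 0.389). These shares stand beside 21.9% and 15.4% over all genes and a median of 0.038.

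The G1 genes are read first because they decide on entry into the cycle. The kinase gene Cdk4 had log2 signals of 9.39 and 9.44 in IL-4c KO and 8.28, 8.03 and 8.23 in naive KO (log2 difference 1.24, SE 0.12, adjusted p = 3.1e-06). Cyclins D1 (Ccnd1, 0.28) and D2 (Ccnd2, -0.17) were not called, and cyclin D3 (Ccnd3, 0.51, adjusted p = 0.023) was called only with naive KO replicate 3 in the fit (adjusted p = 0.069 without it). Cyclins E1 (Ccne1) and E2 (Ccne2) rose by 1.02 and 1.06 and the E2F factors E2f8 and E2f2 by 1.49 and 0.97. Cdkn1b, the kinase inhibitor p27, had 8.20 and 8.06 in IL-4c KO and 9.28, 9.21 and 9.67 in naive KO (-1.26, SE 0.22, adjusted p = 4.3e-04). Cdkn2b, the inhibitor p15, fell by 0.91, whereas Cdkn2d, the inhibitor p19, rose by 1.34.

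Supply of nucleotides and the replication machinery came next in size. Rrm2, the limiting subunit of ribonucleotide reductase, had log2 signals of 7.95 and 8.13 in IL-4c KO and 5.24, 4.62 and 5.91 in naive KO (log2 difference 2.78, SE 0.28, adjusted p = 3.1e-06). Tyms, thymidylate synthase, rose by 1.93, the large reductase subunit Rrm1 by 1.74 and the mitochondrial folate enzyme Shmt2 by 1.30. Of the helicase that unwinds origins, Mcm2 rose by 1.41 and Mcm7 by 1.38. Mcm2 had 7.04 and 7.16 in IL-4c KO and 6.00, 5.44 and 5.65 in naive KO. Gins1, Uhrf1, Cdc6 and Mcm10 rose by 1.2 to 1.34, while the sliding clamp Pcna rose by 0.35.

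The mitotic genes had the largest median of the 4 lists. Ube2c, the ubiquitin-conjugating enzyme of the anaphase-promoting complex, had log2 signals of 8.87 and 8.89 in IL-4c KO and 6.25, 6.37 and 7.03 in naive KO (log2 difference 2.33, SE 0.21, adjusted p = 9.6e-07). Bub1, a kinase of the spindle checkpoint, had 7.0 and 6.98 in IL-4c KO and 4.34, 4.45 and 5.34 in naive KO (2.28, SE 0.30, adjusted p = 3.5e-05). Naive KO replicate 3 was the highest naive array for both genes and still lay below the IL-4c arrays. Plk1, Cdk1, Ccna2 and Prc1, all of which act in mitosis or cytokinesis, rose by 1.99 to 2.25. Mki67, which encodes the Ki-67 antigen of dividing cells, had 7.88 and 8.23 in IL-4c KO and 6.48, 6.27 and 7.41 in naive KO (1.34, SE 0.27, adjusted p = 0.0012). Without naive KO replicate 3 its log2 difference was 1.68 (adjusted p = 4.6e-05).

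The promoters of Ube2c (chr2:164769679-164769978, plus strand) and Bub1 (chr2:127831810-127832109, minus strand) are printed as the mitotic genes with the largest rises, from RefSeq on GRCm38.p6 and 5′ to 3′. Capitals mark CCAAT, the letters read by NF-Y, and TTTGAA or TTTAAA, the CHR element of cell cycle promoters, each on either strand.
Ube2c: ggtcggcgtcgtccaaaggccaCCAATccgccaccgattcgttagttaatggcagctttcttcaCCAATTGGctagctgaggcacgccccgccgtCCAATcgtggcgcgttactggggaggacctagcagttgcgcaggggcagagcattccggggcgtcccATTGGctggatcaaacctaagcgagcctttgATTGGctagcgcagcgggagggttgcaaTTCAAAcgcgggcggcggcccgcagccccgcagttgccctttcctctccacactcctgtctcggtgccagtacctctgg
Bub1: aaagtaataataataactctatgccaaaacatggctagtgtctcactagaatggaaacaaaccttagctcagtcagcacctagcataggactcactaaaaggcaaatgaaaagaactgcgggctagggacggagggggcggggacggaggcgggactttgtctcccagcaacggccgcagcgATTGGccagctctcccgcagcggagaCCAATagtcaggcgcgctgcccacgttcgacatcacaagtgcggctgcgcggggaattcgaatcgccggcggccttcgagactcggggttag
The Ube2c window held 6 matches of CCAAT, of which 1 pair overlaps on opposite strands, and 1 CHR match, and the Bub1 window held 2 CCAAT matches and 0 CHR matches. Of 41 mitotic promoters 68.3% held CCAAT, against 41.1% of all 27025 promoters and 42.3% of those of tested genes. The CHR letters were in 78% of the mitotic promoters, 78.6% of the 14 promoters of secreted products of alternative activation and 43.2% of the 37 of genes that fell at least 4-fold, against 30.6% of all promoters and 22.2% of those of tested genes. Among 31 promoters of replication genes 35.5% held an E2F motif (TTTCCCGC or TTTGGCGC, either strand), against 1.8% of all promoters and 3.54% of those of tested genes. These shares are descriptions of letters, not of binding.

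**Figure D3:**
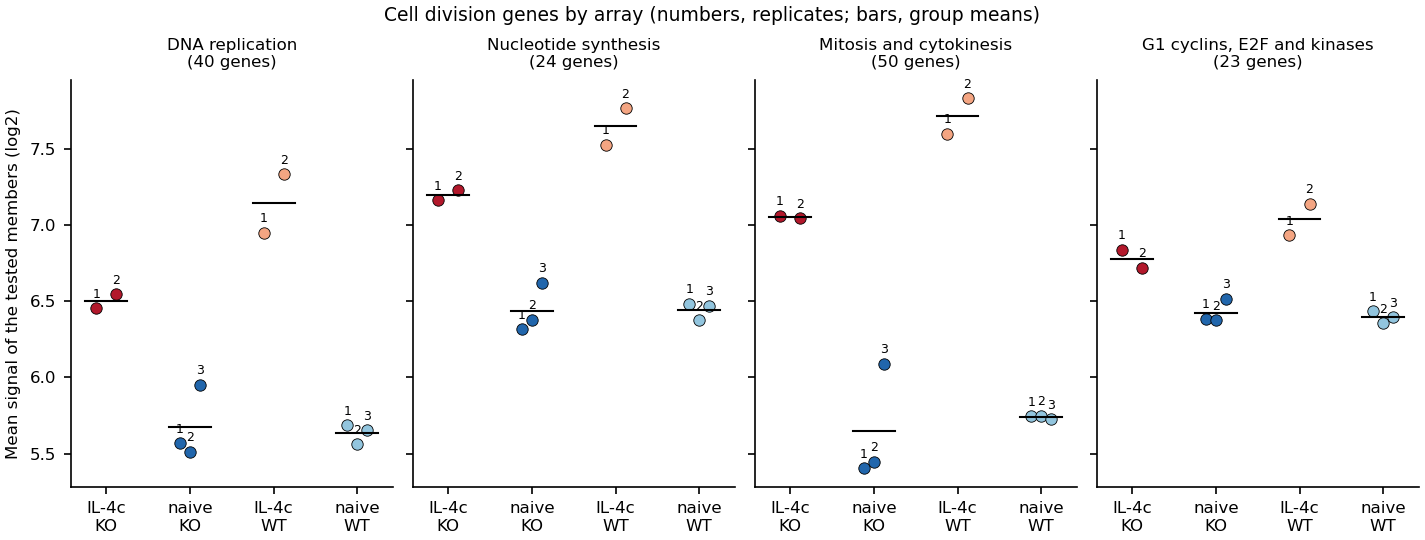
Mean log2 signal per array of the tested genes of 4 division lists, in IL-4c KO, naive KO, IL-4c WT and naive WT, with 1 point per array. Both IL-4c KO arrays lie above every naive KO array in each panel, and naive KO replicate 3 lies above replicates 1 and 2.

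Naive KO replicate 3 carried more signal of division than the other untreated knockout arrays. The mitosis list averaged log2 signals of 7.06 and 7.04 in IL-4c KO and 5.4, 5.45 and 6.09 in naive KO, with 6.09 on replicate 3. The replication list averaged 6.45 and 6.55 in IL-4c KO and 5.57, 5.51 and 5.95 in naive KO. The IL-4c KO arrays lay above replicate 3 in both lists. Without that array 47 of 50 mitotic genes again rose and 1 fell, and the median log2 difference was 1.703. Of the replication genes 35 then rose (median 1.019), and of the nucleotide genes 14 rose (median 0.649). With naive KO replicate 1 or 2 left out instead, 27 replication genes rose, and 27 with arrays centred on the median of the tested genes. Fewer than with all arrays also rose without either IL-4c KO array, where the replication medians were 0.839 (without replicate 1) and 0.813 (without replicate 2).

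**Figure D4:**
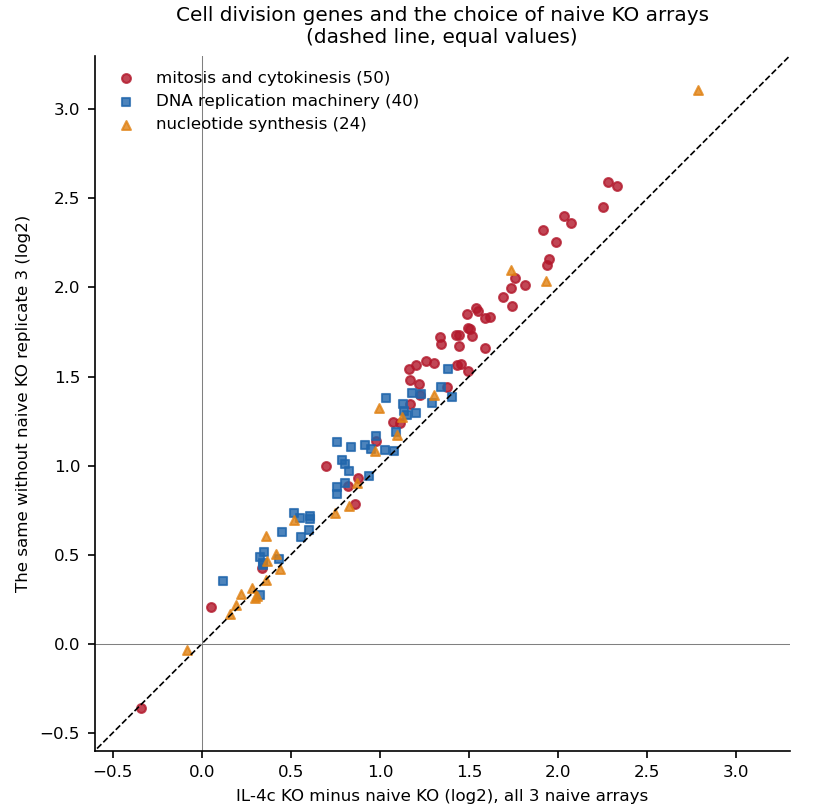
Log2 differences, IL-4c KO minus naive KO, for genes of mitosis, DNA replication and nucleotide synthesis, with all 3 naive arrays (horizontal axis) and without naive KO replicate 3 (vertical axis). Points above the line of equality have a larger difference without that array; the median for mitosis was 1.703 without it and 1.452 with it.

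Genes of mitochondrial respiration rose in most complexes. Of complex I 14 of 23 tested subunits rose and 1 fell (median log2 difference 0.446), of complexes II and III 11 of 13 rose and 0 fell (median 0.697), of complex IV 7 of 14 rose and 0 fell (median 0.379), and of ATP synthase 12 of 15 rose and 0 fell (median 0.654). Atp5g1, a subunit of the rotor ring, had log2 signals of 10.17 and 10.18 in IL-4c KO and 8.67, 8.70 and 8.71 in naive KO (log2 difference 1.48, SE 0.11, adjusted p = 2.1e-07). Uqcrc1, a core subunit of complex III, had 8.86 and 8.98 in IL-4c KO and 7.48, 7.59 and 7.66 in naive KO (1.34, SE 0.16, adjusted p = 1.2e-05). Replicates agreed closely in both genes and the groups did not overlap. Ndufv1 and Ndufb8 of complex I rose by 1.13 and 1.12, and Cox4i1 of complex IV by 0.93. Ndufa4, listed with complex I, was the gene that fell, with 9.69 and 10.17 in IL-4c KO and 10.92, 11.25 and 11.30 in naive KO (-1.22, SE 0.21, adjusted p = 3.5e-04). Of the TCA cycle 9 of 16 genes rose and 0 fell (median 0.573), led by malate dehydrogenase 2 (Mdh2, 1.01). Fatty acid oxidation stood closer to the background, with 4 of 16 genes higher and 0 lower (median 0.263), with 6 higher without naive KO replicate 3 and 1 without IL-4c KO replicate 1. Cpt1a, which controls entry of fatty acids into mitochondria, was not called (-0.39).

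Of 17 tested genes of glycolysis 11 rose and 1 fell (median log2 difference 0.900). Pgam1, a mutase of the lower pathway, had log2 signals of 10.32 and 9.94 in IL-4c KO and 8.12, 7.89 and 7.96 in naive KO (log2 difference 2.14, SE 0.15, adjusted p = 9.1e-08). Pfkfb4, which sets the level of the activator fructose 2,6-bisphosphate, had 7.23 and 6.63 in IL-4c KO and 4.70, 4.50 and 4.94 in naive KO (2.22, SE 0.18, adjusted p = 3.3e-07). The lactate exporter gene Slc16a3 rose by 2.16, the glucose transporter gene Slc2a1 by 1.75 (1.17 without IL-4c KO replicate 1), Tpi1 by 1.57 and lactate dehydrogenase A (Ldha) by 1.28. Hk1, hexokinase 1, had 9.81 and 9.71 in IL-4c KO and 10.75, 10.50 and 10.80 in naive KO, and fell by 0.93 (adjusted p = 6.6e-04). That call rests on the probe set with the highest mean, since the mean of the gene's probe sets gave a difference of 0.0313. In the pentose phosphate and redox list 8 of 20 genes rose and 1 fell (median 0.225), or 5 rose without IL-4c KO replicate 1, with transketolase (Tkt, 1.27) and Pgd (1.2) highest.

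Cholesterol synthesis rose in 16 of 20 tested genes and fell in 0 (median log2 difference 0.668), and in 10 without IL-4c KO replicate 1. Fdps, farnesyl diphosphate synthase, had log2 signals of 6.65 and 6.64 in IL-4c KO and 5.18, 5.17 and 5.26 in naive KO (log2 difference 1.44, SE 0.15, adjusted p = 3.8e-06). Mvd, Ebp and Dhcr7, enzymes of the same route, rose by 1.24 to 1.36, Insig1, a sterol sensor partner, by 1.09 and Srebf2, the factor that drives the route, by 0.67. All 16 of the 16 promoters of this list in the table (100%) held CCAAT. In fatty acid synthesis 7 of 11 genes rose and 2 fell (median 0.721): the desaturase genes Scd2 and Scd1 rose by 3.07 and 1.38, while Acaca, acetyl-CoA carboxylase, fell by 1.17 and the elongase gene Elovl5 by 0.78. Targets of the sterol receptor LXR split, with 4 of 11 higher and 4 lower (median -0.067), and 2 higher without IL-4c KO replicate 1. Apoe, apolipoprotein E, had 10.82 and 11.28 in IL-4c KO and 12.72, 12.74 and 12.65 in naive KO (-1.66, SE 0.17, adjusted p = 4.2e-06). The exporter gene Abca1 had 7.28 and 5.87 in IL-4c KO and 8.48, 8.31 and 8.35 in naive KO (-1.81, SE 0.31, adjusted p = 3.1e-04), while the related exporter gene Abcg1 rose by 1.33. The pair of IL-4c arrays was far apart for Abca1 but did not reach the naive arrays, and without IL-4c KO replicate 2 its difference was -1.1.

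Of 31 genes of the endoplasmic reticulum (ER) secretory pathway and unfolded protein response 22 rose and 1 fell (median log2 difference 0.714). Pdia6, a protein disulfide isomerase, had log2 signals of 11.02 and 10.71 in IL-4c KO and 8.75, 8.99 and 8.72 in naive KO (log2 difference 2.04, SE 0.15, adjusted p = 1.3e-07). Hyou1, an ER chaperone, had 8.71 and 8.57 in IL-4c KO and 7.17, 7.06 and 6.65 in naive KO (1.68, SE 0.17, adjusted p = 3.8e-06). Sdf2l1, Creld2, Pdia4 and the oxidase gene Ero1a rose by 1.37 to 1.71. Ern1, the stress sensor IRE1α, fell by 0.72. Of the proteasome 15 of 29 genes rose and 1 fell (median 0.326), with the immunoproteasome subunits Psmb9 (1.27) and Psmb10 (1.03) highest.

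Of ATF4 targets and amino acid transporters 9 of 21 rose and 0 fell (median log2 difference 0.324). After Slc7a2 these were led by Psat1 of serine synthesis (1.68), asparagine synthetase (Asns, 1.64) and the transporter gene Slc7a5 (1.37). The factor gene Atf4 itself was not called (0.05). Of 24 genes of ribosome biogenesis 2 rose and 3 fell, with a median of 0.055, and 0 rose without IL-4c KO replicate 1. The nucleolar proteins Npm1 and Ncl fell by 0.79 and 0.62. Lysosomal genes rose in 10 of 21 cases and fell in 2 (median 0.432), but in 3 and 2 without IL-4c KO replicate 1. Cathepsins Z (Ctsz) and L (Ctsl) rose by 1.48 and 1.30 and cathepsin C (Ctsc) fell by 0.93.

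Receptors by which macrophages sense their surroundings were among the genes that fell. Of 26 tested Fc receptors, C-type lectins and paired receptors 13 fell and 5 rose, with a median log2 difference of -0.795, and 2 rose without IL-4c KO replicate 1 and 3 without naive KO replicate 1. Pilra, an inhibitory paired receptor, had log2 signals of 4.66 and 5.49 in IL-4c KO and 10.51, 10.14 and 10.47 in naive KO (log2 difference -5.30, SE 0.23, adjusted p = 3.2e-10). The groups lay far apart, and 1 of the 2 IL-4c arrays was dim. Its activating partners Pilrb1 and Pilrb2 fell by 3.43 and 2.74, and probes may be shared between them, since the genes are close copies. Clec4d, a C-type lectin that senses mycobacterial lipids, had 7.88 and 6.98 in IL-4c KO and 10.30, 10.48 and 10.31 in naive KO (-2.94, SE 0.34, adjusted p = 1e-05). Clec5a fell by 1.75. Members that rose were smaller in size, with Clec4a3 at 0.95, the lipid receptor gene Trem2 at 0.86, Fcgr4 at 0.77 and the inhibitory receptor gene Fcgr2b at 0.63.

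Sensors of microbial products fell too, with 11 of 21 tested genes of the Toll-like receptor and inflammasome list lower and 2 higher (median log2 difference -0.378), and 7 lower without IL-4c KO replicate 2. Nlrp3, the inflammasome sensor, had log2 signals of 4.10 and 3.82 in IL-4c KO and 6.55, 6.50 and 6.94 in naive KO (log2 difference -2.71, SE 0.17, adjusted p = 1.8e-08). Its level after IL-4c was dim. Tlr2, which senses lipopeptides, had 6.66 and 5.79 in IL-4c KO and 8.31, 8.02 and 8.27 in naive KO (-1.97, SE 0.19, adjusted p = 1.9e-06). The adaptor receptor gene Cd14 fell by 1.29, Naip2 by 1.34, Aim2 by 1.01 and Tlr7 by 1.0. Tlr4, the receptor for lipopolysaccharide, had 9.28 and 8.78 in IL-4c KO and 7.99, 8.16 and 8.12 in naive KO, and rose by 0.93 (SE 0.16, adjusted p = 2.9e-04).

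Immediate early genes, which also respond to cell handling, fell in 15 of 26 cases and rose in 0 (median log2 difference -0.791). In the fit without IL-4c KO replicate 2, 11 fell and 3 rose (median -0.434). Rgs2, a regulator of G protein signalling, had log2 signals of 5.30 and 5.59 in IL-4c KO and 9.14, 9.13 and 9.23 in naive KO (log2 difference -3.73, SE 0.14, adjusted p = 8.9e-11). Dusp1, a phosphatase that switches off MAP kinases, had 9.5 and 9.37 in IL-4c KO and 11.31, 11.41 and 11.50 in naive KO (-1.97, SE 0.17, adjusted p = 7.7e-07). Rgs1 fell by 2.31, Nfkbiz by 1.92, the heat shock gene Hspa1a by 1.82 and Egr1 by 1.5. The labels name no processing batch, so if treated and untreated cells were handled apart, handling and treatment cannot be told apart.

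Chemokine genes split by kind and by array. Of 22 tested 4 rose and 8 fell, with a median log2 difference of 0.012. Of them 2 rose without IL-4c KO replicate 1 (median -0.442) and 8 without replicate 2 (median 0.175). The neutrophil attractant gene Cxcl2 had log2 signals of 7.68 and 5.67 in IL-4c KO and 10.57, 10.05 and 10.43 in naive KO (log2 difference -3.67, SE 0.44, adjusted p = 1.5e-05). Ccl3 had 6.98 and 5.44 in IL-4c KO and 9.58, 9.32 and 9.62 in naive KO (-3.30, SE 0.57, adjusted p = 3.6e-04). Cxcl1 and Cxcl12 fell by 2.05 and 1.88. Among the risen genes the IL-4c arrays differed widely. Ccl8, a monocyte attractant, had 9.0 and 5.06 in IL-4c KO and 3.18, 3.38 and 2.98 in naive KO (3.85, SE 0.71, adjusted p = 6.3e-04). Ccl5 had 10.53 and 6.66 in IL-4c KO and 5.48, 5.72 and 6.00 in naive KO (2.86, SE 0.69, adjusted p = 0.0042). Without IL-4c KO replicate 1 the log2 differences were 1.88 for Ccl8, 0.92 for Ccl12 and 0.92 for Ccl5 (adjusted p = 0.0039, 0.0046 and 0.071), so the call for Ccl5 was lost. With replicate 1 as the only IL-4c array they were 5.82, 2.97 and 4.80. That replicate also led in the interferon-responsive factor gene Irf7, at 9.29, against 8.0 on the other IL-4c array and 6.76, 7.33 and 6.65 in naive KO. Of 16 interferon-stimulated genes 6 rose and 1 fell (median log2 difference 0.115), but 3 rose without IL-4c KO replicate 1 (median -0.105) or naive KO replicate 1 (median -0.095). They averaged log2 signals of 7.37 and 6.90 in IL-4c KO and 6.65, 7.32 and 6.80 in naive KO, so naive KO replicate 2 lay above 1 of the IL-4c arrays, and the median without it was 0.379.

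Of 18 cytokine and growth factor genes 3 rose and 5 fell, with 1 risen without IL-4c KO replicate 1 and 3 fallen without IL-4c KO replicate 2 or naive KO replicate 2. Il6 rose by 1.32 (SE 0.24, adjusted p = 4.7e-04), oncostatin M (Osm) by 1.10 and Vegfa by 1.07, and interleukin-18 (Il18) fell by 0.93 and Il16 by 0.87. Scavenger and efferocytosis receptors showed 5 of 19 higher and 7 lower, with 2 lower without IL-4c KO replicate 2 and 3 higher without IL-4c KO replicate 1 or naive KO replicate 1. Of them Scarb1, the HDL receptor, rose by 1.0 and Colec12 fell by 1.0. Complement showed 0 of 15 higher and 2 lower (0 lower without IL-4c KO replicate 2), of which Vsig4, a complement receptor of resident macrophages, fell by 0.72. MHC class II showed 1 of 8 higher and 2 lower, and its main chains H2-Aa (0.23) and H2-Ab1 (0.05) were not called. In coagulation and fibrinolysis 7 of 13 rose and 3 fell, with 3 higher without IL-4c KO replicate 1. There Thbd, thrombomodulin, rose by 1.66 (SE 0.18, adjusted p = 8e-06) and annexin A2 (Anxa2) by 1.61, while thrombospondin 1 (Thbs1) fell by 1.09. Of 15 circadian clock genes, Bhlhe40 among them, 2 rose and 3 fell. Clock fell by 0.43 and Per3 by 0.60, and the core genes Per2 (0.14), Cry2 (0.15) and Arntl (-0.24) were not called.

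The response of knockout LPM was then set against that of WT LPM, as the difference between the 2 log2 differences. They share no array. Of 11634 genes 47 had a higher response in KO (0.404%) and 17 a lower one (0.146%), while 1521 passed an unadjusted p of 0.05, and the median difference of responses was 0.029. Without naive KO replicate 3 the count was 57, with 49 genes called in both fits. With 1 array left out the count ran from 20 (without IL-4c WT replicate 2) to 124 (without IL-4c KO replicate 2), and was 33 without IL-4c KO replicate 1, 37 without naive WT replicate 2 and 45 without naive WT replicate 3. The WT responses of some large rises described above were 8.39 for Rnase2a, 5.66 for Chil3, 6.10 for Mgl2, 3.15 for Slc7a2 and 1.87 for Klf4, beside 8.44, 7.47, 5.56, 3.13 and 1.89 in KO. Their differences of responses were 0.05, 1.81, -0.53, -0.02 and 0.03, and none of these 5 passed the threshold, which does not show that the responses were equal.

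**Figure D5:**
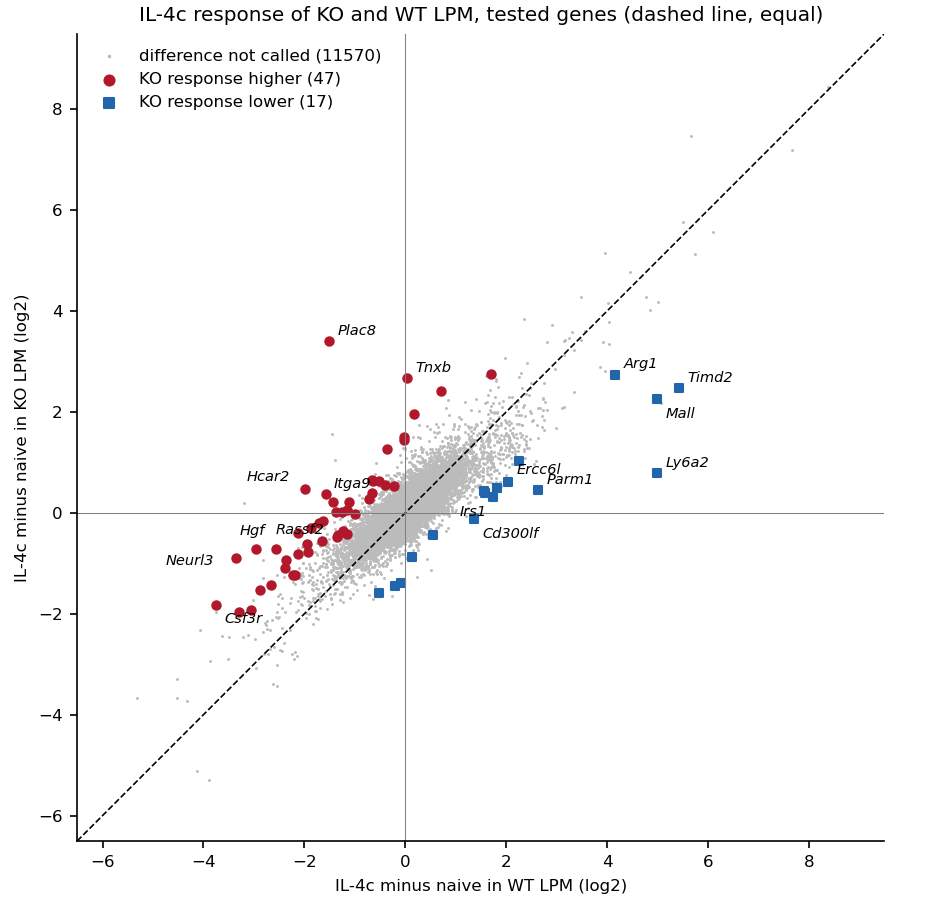
Log2 difference, IL-4c minus naive, in KO LPM (vertical axis) and in WT LPM (horizontal axis), with 1 point per tested gene. Red marks the 47 genes with a higher response in KO, blue the 17 with a lower one and grey the genes not called.

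Plac8 had the largest difference among the genes named. After IL-4c it had log2 signals of 9.38 and 9.03 in KO and 4.66 and 3.14 in WT, and untreated cells had 5.94, 5.75 and 5.72 in KO and 5.32, 5.95 and 4.97 in WT. Only the knockout arrays after IL-4c were high. The response was 3.41 in KO and -1.51 in WT, a difference of 4.92 (SE 0.72, adjusted p = 0.0041). Plac8 is also a marker of monocytes, dendritic cells and small peritoneal macrophages. Of the 7 tested markers of that list 2 rose in KO, Plac8 itself and Batf3 (0.85). Another 2 fell, Ccr2 (-1.68, to a dim level) and Cx3cr1 (-0.83). The defining dendritic cell genes Flt3 and Zbtb46 were dim. Tnxb, the extracellular matrix protein tenascin-X, had 7.57 and 6.52 after IL-4c and 4.62, 4.41 and 4.07 without it in KO, and 4.53 and 4.15 after IL-4c and 4.32, 4.21 and 4.38 without it in WT. It responded by 2.68 in KO and 0.04 in WT (difference 2.64, SE 0.35, adjusted p = 0.0026).

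Several genes were lowered by IL-4c less in the knockout than in WT. Neurl3, an E3 ubiquitin ligase, had log2 signals of 6.65 and 6.66 after IL-4c and 7.74, 7.55 and 7.38 without it in KO, and 4.59 and 4.57 after IL-4c and 7.94, 7.93 and 7.91 without it in WT. Its response was -0.90 in KO and -3.35 in WT (difference 2.45, SE 0.23, adjusted p = 2.2e-04). Csf3r, the G-CSF receptor and one of the neutrophil markers above, had 6.67 and 6.67 after IL-4c and 8.58, 8.42 and 8.47 without it in KO, and 5.88 and 5.32 after IL-4c and 9.20, 9.44 and 9.38 without it in WT. Its response was -1.82 in KO and -3.74 in WT (difference 1.92, SE 0.24, adjusted p = 0.0026). The naive KO arrays of Csf3r were already below the naive WT arrays, and those of Neurl3 were too. Hgf, hepatocyte growth factor, responded by -0.72 in KO and -2.96 in WT, and Rassf2 by -0.71 in KO and -2.56 in WT. Among the immediate early genes 5 had a higher response in KO, and 3 without naive KO replicate 3. Dusp1 was among the 5, with -1.97 in KO and -3.30 in WT (difference 1.33, SE 0.24, adjusted p = 0.019). The call for Dusp1 was lost without IL-4c KO replicate 1, IL-4c WT replicate 2 or naive WT replicate 2.

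Other genes were raised by IL-4c less in the knockout. Plac8, Tnxb, Neurl3, Csf3r, Hgf and Rassf2 above, and Ly6a2, Timd2 and Parm1 here, passed the threshold with any 1 of the 10 LPM arrays left out. Ly6a2 had log2 signals of 3.64 and 4.59 after IL-4c and 3.54, 3.03 and 3.40 without it in KO, and 7.93 and 8.63 after IL-4c and 3.16, 3.52 and 3.20 without it in WT. All 5 knockout arrays were dim, and the difference of responses was -4.20 (SE 0.57, adjusted p = 0.0026). Timd2, a receptor of the TIM family, had 5.32 and 6.29 after IL-4c and 3.13, 3.37 and 3.49 without it in KO, and 8.46 and 8.90 after IL-4c and 3.05, 3.38 and 3.29 without it in WT (difference -2.97, SE 0.42, adjusted p = 0.0037). Its IL-4c arrays were above the untreated arrays in both genotypes, and the knockout ones lay between. Mall responded by 2.26 in KO and 4.99 in WT, a call lost without IL-4c WT replicate 2, and Parm1 by 0.45 in KO and 2.64 in WT. Ucp1 responded by 2.17 in KO and 5.07 in WT, and that difference of -2.90 missed the threshold (adjusted p = 0.059).

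Arg1 showed that a smaller response need not mean a lower level after IL-4c. Its log2 signals after IL-4c were 12.36 and 12.24 in KO and 12.25 and 12.30 in WT, and without IL-4c they were 9.61, 9.26 and 9.81 in KO and 8.36, 8.05 and 7.91 in WT. The treated arrays overlapped and the untreated ones did not. The response was 2.74 in KO and 4.17 in WT (difference -1.43, SE 0.25, adjusted p = 0.013), and the call was lost without IL-4c WT replicate 2 (adjusted p = 0.071).

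The division lists had medians above 0 in both genotypes and smaller ones in the knockout. The median response of the mitosis list was 1.452 in KO and 2.121 in WT, and that of the replication list 0.815 in KO and 1.507 in WT. For nucleotide synthesis it was 0.478 in KO and 0.992 in WT, and for G1 genes 0.389 in KO and 0.692 in WT. Of single genes Orc1, a subunit of the origin recognition complex, had a lower response in KO by the test (-1.13), as did cyclin E1 (Ccne1, -1.24), E2f7 (-1.2) and the mitotic helicase gene Ercc6l (-1.42). These 4 calls were lost without IL-4c WT replicate 2, and those of Orc1, E2f7 and Ercc6l also without IL-4c KO replicate 1. None of the 50 genes of the mitosis list, which does not hold Ercc6l, was called. Of their differences of responses 49 were below 0, with a median of -0.590. Of the replication genes 39 of 40 were below 0 (median -0.625). Without naive KO replicate 3 these medians were -0.306 for mitosis and -0.485 for replication. After IL-4c the mitosis list averaged log2 signals of 7.06 and 7.04 in KO and 7.60 and 7.83 in WT. Untreated cells averaged 5.4, 5.45 and 6.09 in KO and 5.74, 5.75 and 5.73 in WT. The naive KO arrays thus lay on both sides of the naive WT arrays, while the IL-4c KO arrays lay below the IL-4c WT arrays. The genes of a list are not independent of each other, so these counts describe the arrays and are no test of the list. For ER genes the medians ran the other way, with 0.714 in KO and 0.384 in WT, and for chemokines they were 0.012 in KO and -0.721 in WT, where IL-4c KO replicate 1 was high.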

How the data were processed

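Gene expression was measured on 16 one-colour arrays with biotin-labelled total RNA. The deposited values are log2 expression per probe set after RMA, as the submitters' processing notes name it; no version is given in the sources used here. Since RMA scales the arrays to each other, the values cannot show a change in the amount of RNA per cell. Of 30177 probe sets 21789 had 1 gene symbol in the platform annotation, 1621 had several and 6767 none here. Of the 19938 genes 999 had more than 1 probe set, each then read by its brightest on average. Genes above the median of an array on 2 or more arrays were tested (11634), and the other 8304 are called dim. A level is also called dim where it lay below 4.84.

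Groups and replicate numbers came from the titles. Differences were fitted with limma 3.58.1 in R 4.3.3 (lmFit on group means over all 16 arrays, eBayes, Benjamini-Hochberg), with 9 residual and 6.61 prior degrees of freedom and a median within-group SD of 0.171. The difference of responses is a contrast in the same fit. The fit was tested on simulated data. The members, gene lists and naming rule were chosen with earlier results of these data known. Named are the 10 largest rises and falls with both group means above 4.84, and the 8 largest of any level. To these come the 8 largest differences of responses each way and a fixed set (Mycn of it was dim). Up to 6 members of each list each way were named, with others given as values, and cell type markers. Promoters and motifs came from the RefSeq table for GRCm38.p6. Alternatives were other normalizations, filters on dim genes, probe set means, variance models, array weights, fewer arrays, a replicate block and each array left out. Python 3.11.15 and matplotlib 3.10.9 drew the figures.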

Additional observations from a re-analysis of the deposited data

Results flagged for a closer look

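The genes below are those named by the rule or listed whose response to IL-4c differed between KO and WT LPM in limma's test of the difference itself (28 genes, 17 of them with a higher response in KO). Each value is the log2 response in KO minus that in WT. Among the largest, the difference was 4.92 for Plac8, 2.64 for Tnxb, 2.45 for Hcar2, 2.45 for Neurl3, 2.24 for Hgf, 1.94 for Itga9, 1.92 for Csf3r and 1.85 for Rassf2. On the other side it was -4.20 for Ly6a2, -2.97 for Timd2, -2.72 for Mall, -2.19 for Parm1, -1.48 for Cd300lf, -1.43 for Arg1, -1.42 for Ercc6l and -1.42 for Irs1.

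Of the immediate early list, Dusp1 (1.33), Ier3 (1.33), Jun (1.30), Zfp36 (1.15) and Nfkbiz (1.13) had a higher response in KO. Of the cell cycle lists, Ccne1 (-1.24), E2f7 (-1.20) and Orc1 (-1.13) had a lower one. The transcription factor genes Cebpa (1.09) and Bach1 (0.96), the complement gene C1qa (1.0) and the Fc receptor gene Fcgr3 (0.97) had a higher one. Without naive KO replicate 3 the complement list held 0 genes with a higher response. Hcar2, a receptor for hydroxy-carboxylic acids, had log2 signals of 6.00 and 4.86 in IL-4c KO, 5.13, 5.02 and 4.72 in naive KO, 4.26 and 4.29 in IL-4c WT and 6.06, 6.27 and 6.45 in naive WT. Its naive KO arrays lay below its naive WT arrays, and the part of this baseline in its response was not tested. No group had 4 arrays or more, so single arrays were not tested as outliers. Of the 28 genes 10 passed the threshold with any 1 array left out, namely Plac8, Tnxb, Neurl3, Hgf, Csf3r, Rassf2, Ly6a2, Timd2, Parm1 and Ier3. Of the others 17 missed it without IL-4c WT replicate 2, which includes Arg1, Mall and Hcar2, and 11 of the 28 without IL-4c KO replicate 1. Nfkbiz missed it with 9 of the 10 arrays left out in turn, Jun and C1qa with 8 and Cebpa with 7.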

How the results depend on the processing

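Of 273 named genes called in the KO response, 198 kept their call and sign under every alternative that tested them, and 2 reversed. The alternative limited to genes above the median on all 5 KO arrays left part of the named genes untested. The KO response had 4342 calls with all arrays. It had 3510 to 4522 under other normalizations, filters, probe set rules, variance models, weights and array sets, 4038 with a replicate block and 2787 to 4081 with 1 array left out, the lowest without IL-4c KO replicate 1. Same-numbered arrays deviated together by at most 0.0628 (correlation). With 2 arrays in an IL-4c group their deviations mirror each other, so this cannot show whether the numbers pair the arrays. The share of risen genes among the calls was 46.52% with arrays centred on the median of the tested genes, an alternative added after the data were seen, against 58.77%. The difference of responses had 64 calls with all arrays, 64 with the block, 109 with an intensity trend and robust variance, 38 with only LPM arrays, and 20 to 124 with 1 array left out, the lowest without IL-4c WT replicate 2 and the highest without IL-4c KO replicate 2. Calls also fell to 33 without IL-4c KO replicate 1 and 37 without naive WT replicate 2. With only LPM arrays 9 of the 28 named calls of that difference were lost, Hcar2 among them (adjusted p = 0.064). Reversals were seen for the mean of probe sets in Ptpn2 (0.0086) and Hk1 (0.0313). Of the fixed set, uncalled genes that reversed were Myc without naive KO replicate 1 (range -0.2 to 0.07 with 1 array left out), Ccnd2 without IL-4c KO replicate 2 (-0.442 to 0.0983), and Il4ra (-0.0716 to 0.588) and Pdcd1lg2 (-0.0323 to 0.554) without IL-4c KO replicate 1. Other uncalled genes also changed sign in KO with 1 IL-4c KO array left out, among them Itga9, Hcar2, Cd300lf, Ccl2 and Cxcl3. The causes were not tested. Where 1 of 2 arrays was left out, the spread of the remaining one was taken from the other groups. The filter set by olfactory receptor probe sets kept 13087 genes, more than the 11634 tested.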
